A study of Mus musculus with 48 samples.

Results

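Sham surgery is the control against which ischemic injury is read, and it can be read itself against brain that was never operated on. All 20 sham libraries of the series, 4 at each of 3 h, 12 h, 24 h, day 3 and day 7 after surgery, were set against the 4 libraries of unoperated control mice, so that 24 of the 48 bulk libraries entered the comparison and the 5 times carried equal weight. All genes were considered, and the spike-in sequences and the summary lines of the counting program were dropped. The mice were 3-month-old C57Black/6 males. Sham mice were anesthetized with isoflurane, and the skin was cut, a hole was drilled in the frontal bone, the dura was removed and the middle cerebral artery was exposed but not coagulated. The remaining 24 libraries came from mice with permanent middle cerebral artery occlusion (MCAO), the same operation with the artery coagulated and cut, and their values serve only as a scale. Control mice had intact cortex and no surgery, and the terminal anesthesia with pentobarbital before perfusion is described for all mice, so the effect of the isoflurane given at surgery and that of the opening cannot be told apart. The control carries no time of its own, and its 4 libraries are shared by every comparison below. Nothing in the labels ties a library to a day, litter or sequencing run, and replicates are described as separate mice, so p-values measure the spread between mice.

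Exposing the cortex is known to stress the tissue below the opening even without ischemia. Opened bone and dura bring meningeal cells, blood and air into contact with the cortical surface, anesthesia quiets neurons and the genes their activity switches on, and the surgical stress response releases glucocorticoids, which act on glia and vessels. Brain endothelium answers inflammatory signals within hours through NF-kB with adhesion molecules that slow passing leukocytes and with chemokines that draw neutrophils. Astrocytes and microglia respond to injury over days.

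The libraries were sequenced from the 3′ end of polyadenylated RNA, and expression is given in CPM (counts scaled to a common library size), adjusted over all 48 libraries with the trimmed mean of M values (TMM). Counts on genes ranged from 1756467 to 1827617 in the controls and from 1590398 to 2826735 in the shams. ERCC spike-ins, RNA added in a fixed amount, took 4.02% ± 0.0580 (SD, n = 4) of the counts in control and 4.43% ± 0.469 (SD, n = 20) in sham, a difference that did not pass (exact permutation test over all assignments, two-sided, p = 0.0942, adjusted over 3 library measures p = 0.283). Neither the number of genes detected nor the share of reads outside genes differed beyond the spread (exact permutation test, p = 0.887 and 0.839). The share of reads aligned to several places ran from 29.8% to 31.1% in the controls and from 28.8% to 30.4% in sham day 7. Its medians were 35.3%, 32.6%, 35.2% and 33.7% in sham 3 h, 12 h, 24 h and day 3. It was the lowest of its group in sham 12 h C (24.0%) and sham day 3 D (29.5%). The part of this share in the results below was not tested. Libraries A and C of sham 12 h and D of sham day 7 stood apart from their groups, with a median absolute deviation from the other libraries of the group of 0.36, 0.40 and 0.33 on the log2 scale over 7492 genes, against 0.16 to 0.24 in the other 21. Markers of cortical neurons and astrocytes were high in all libraries, while the summed level of the striatal markers varied from 487.5 to 3135 CPM among the shams and from 943.7 to 2460 CPM among the controls. The part of this spread in the results below was not tested.

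Pooled over the 5 times, few genes differed between sham and unoperated cortex. Of 18140 genes tested, 5 passed the threshold (edgeR quasi-likelihood test with Benjamini-Hochberg adjustment, a p under 0.01 after adjustment and a log2 fold change beyond 0.58 in either direction), which is 0.0276% of the genes. All 5 were lower in sham: *U2af1*, *Arf3*, *Synpr*, *Cxcl1* and *Ttr*. No gene rose, and without adjustment 335 genes were higher and 549 lower at p under 0.05 (1.85% and 3.03%). DESeq2 called 6 genes, all lower as well, but in part other genes: *U2af1*, *Arf3*, *Synpr*, *Acta2*, *Btbd2* and *Rnf126*. At an adjusted p under 0.05 and with no minimum fold, the edgeR count was 8 genes or 0.0441%, all lower, with *Acta2*, *Btbd2* and *Slc38a2* as the additions. Among the 11512 genes with a mean of at least 5 CPM, the median log2 fold change was -0.0038 with a median standard error of 0.18, and for 10654 of them (92.5%) the 95% interval lay within a 2-fold change in either direction. For 59.2% it lay within 0.58 on the log2 scale.

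**Figure D1:**
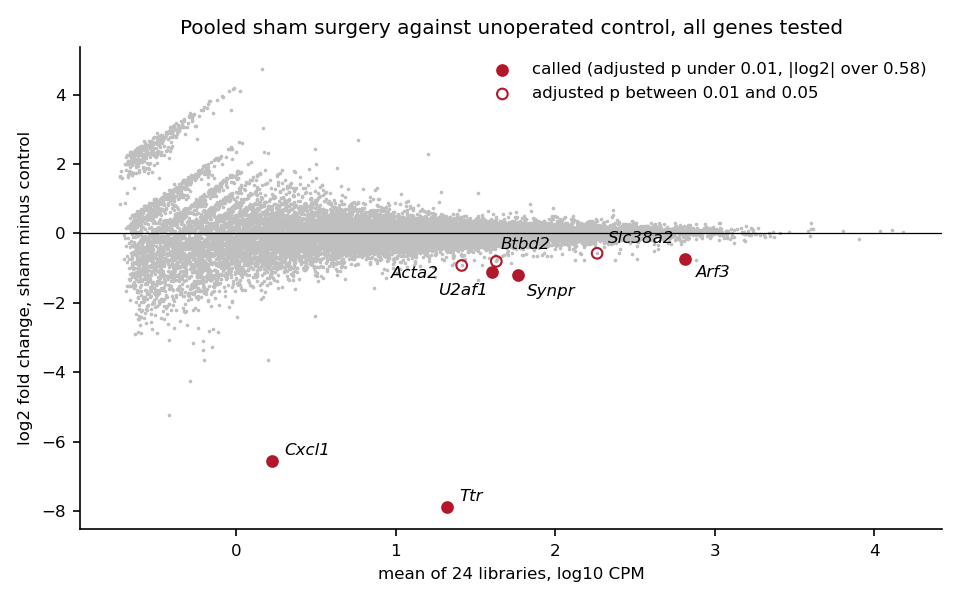
Log2 fold change of pooled sham minus control (vertical) against the mean level of each of the 18140 genes in log10 CPM (horizontal), with the 5 called genes filled and the 3 genes at an adjusted p between 0.01 and 0.05 open. All 8 marked genes lie below 0, *Ttr* and *Cxcl1* far below and the others between -1.21 and -0.57.

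Complete separation of the groups was as rare. In 3 genes (0.0165%) all 4 controls lay above all 20 shams, and in 2 genes (0.011%) all 4 lay below. The genes were *Acyp1*, *Fbxl6* and *Cebpb* in one direction and *Zfp580* and *Mtor* in the other, named here because of their values, and none passed the threshold.

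The marked genes *U2af1*, *Arf3* and *Btbd2* had their low point 12 h to 24 h after surgery and were near control by day 7. *U2af1* (chromosome 17, 31647081-31658892, minus strand of GRCm38) encodes the small subunit of the splicing factor that recognizes the 3′ splice site. Its controls stood at 73.7, 68, 68.3 and 65.1 CPM. The sham libraries held 41.5, 40.3, 52.4 and 47.4 CPM at 3 h and 11.7, 20.3, 17.4 and 28.8 CPM at 12 h. They held 20.8, 17.1, 16.5 and 26.2 CPM at 24 h, 26.8, 32.3, 22.9 and 31.9 CPM on day 3 and 50.4, 58.8, 76.9 and 54.7 CPM on day 7. Every sham library up to day 3 lay below every control, and on day 7 the groups overlapped. The pooled log2 fold change was -1.12 ± 0.14 (SE; edgeR adjusted p = 0.000129). By time it was -0.59 at 3 h, -1.79 at 12 h, -1.75 at 24 h, -1.27 on day 3 and -0.18 on day 7, past the threshold at 12 h, 24 h and day 3 (edgeR adjusted p = 1.33e-05, 3.35e-05 and 0.00622). The 5 sham times differed among themselves (edgeR F test, adjusted p = 2.25e-05). Injured cortex held from 17.4 to 38.8 (median 24.5) CPM at 12 h and from 12.7 to 29.9 (median 25.3) CPM at 24 h, and pooled MCAO did not differ from pooled sham beyond the spread (log2 fold change 0.13 ± 0.11, edgeR adjusted p = 0.541).

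*Arf3* (chromosome 15, 98736634-98763214, minus strand), a small GTPase of Golgi and endosome traffic that is abundant in neurons, had its lowest levels at the same times. It stood at 816, 986, 1126 and 884 CPM in the controls. It stood at 439, 410, 691 and 425 CPM at 12 h after sham surgery and 371, 347, 367 and 477 CPM at 24 h. All 8 of these libraries were below the lowest control. On day 7 the 4 libraries stood between 792 and 916 CPM, overlapping the control. The pooled log2 fold change was -0.73 ± 0.11 (SE; edgeR adjusted p = 0.00181), and the 12 h and 24 h values of -0.96 and -1.28 passed on their own (edgeR adjusted p = 0.00307 and 3.35e-05). *Arf3* was lower still in MCAO than in sham when all times were pooled (log2 fold change -0.36 ± 0.07, edgeR adjusted p = 0.000384).

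*Btbd2* (chromosome 10, 80642617-80657071, minus strand), a BTB domain protein, passed at 12 h (log2 fold change -1.26 ± 0.21 SE, edgeR adjusted p = 0.00394) and not in the pooled comparison (-0.80 ± 0.15, adjusted p = 0.0244). DESeq2 did call it in the pooled comparison (DESeq2 adjusted p = 0.000758). Its 4 controls held 62.5, 72, 66.6 and 54.8 CPM. The shams held 24.6, 22.4, 34.4 and 24.6 CPM at 12 h and 18.4, 22.8, 25 and 40.9 CPM at 24 h, all below the controls, and 45.9, 49.5, 73 and 62.1 CPM at 3 h, within and around them.

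*Synpr* (chromosome 14, 13284780-13616340, plus strand) encodes synaptoporin, a synaptic vesicle membrane protein of forebrain neurons, and its largest difference was at 12 h. The controls stood at 82.6, 110, 118 and 52.5 CPM. At 12 h the shams stood at 5.03, 4.17, 13.3 and 4.29 CPM, far below every other library of the comparison. They stood at 44.7, 52.4, 46.2 and 73 CPM at 3 h and 49.3, 36.7, 58.5 and 68.2 CPM at 24 h. On day 3, at 78, 93.7, 105 and 144 CPM, they overlapped the control range, and on day 7 they were at 34.3, 63.9, 39.2 and 34.2 CPM. The log2 fold change was -3.69 ± 0.33 (SE) at 12 h (edgeR adjusted p = 6.64e-08) and -1.21 ± 0.20 (SE) over all times (adjusted p = 0.00448). Without the 12 h group the pooled value was -0.59 (edgeR adjusted p = 0.627). In the MCAO groups the low time was another one: *Synpr* was from 2.83 to 8.2 (median 3.02) CPM at 3 h and from 24.1 to 82 (median 48.5) CPM at 12 h.

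*Acta2* (chromosome 19, 34241090-34255590, minus strand), the actin of vascular smooth muscle, was lower in sham than in every control in 19 of 20 libraries. It stood at 50.8, 34.9, 45.2 and 37.7 CPM in the controls and from 10.1 to 41.1 (median 21.1) CPM in the shams. The pooled log2 fold change was -0.92 ± 0.17 (SE; edgeR adjusted p = 0.0229), short of the threshold, though DESeq2 called the gene (DESeq2 adjusted p = 0.000402). The value was -1.02 at 3 h, -1.10 at 12 h, -1.29 at 24 h, -0.93 on day 3 and -0.27 on day 7. Over the 12 markers of mural cells, the pericytes and smooth muscle cells of vessels, 11 had a negative pooled value with a median of -0.26, beside -0.01 over all genes, and none was called. The summed level of these markers ran from 199.4 to 297.6 CPM in the shams and from 274.6 to 319.1 CPM in the controls. In bulk tissue, fewer cells of a type and less RNA per cell cannot be told apart.

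**Figure D2:**
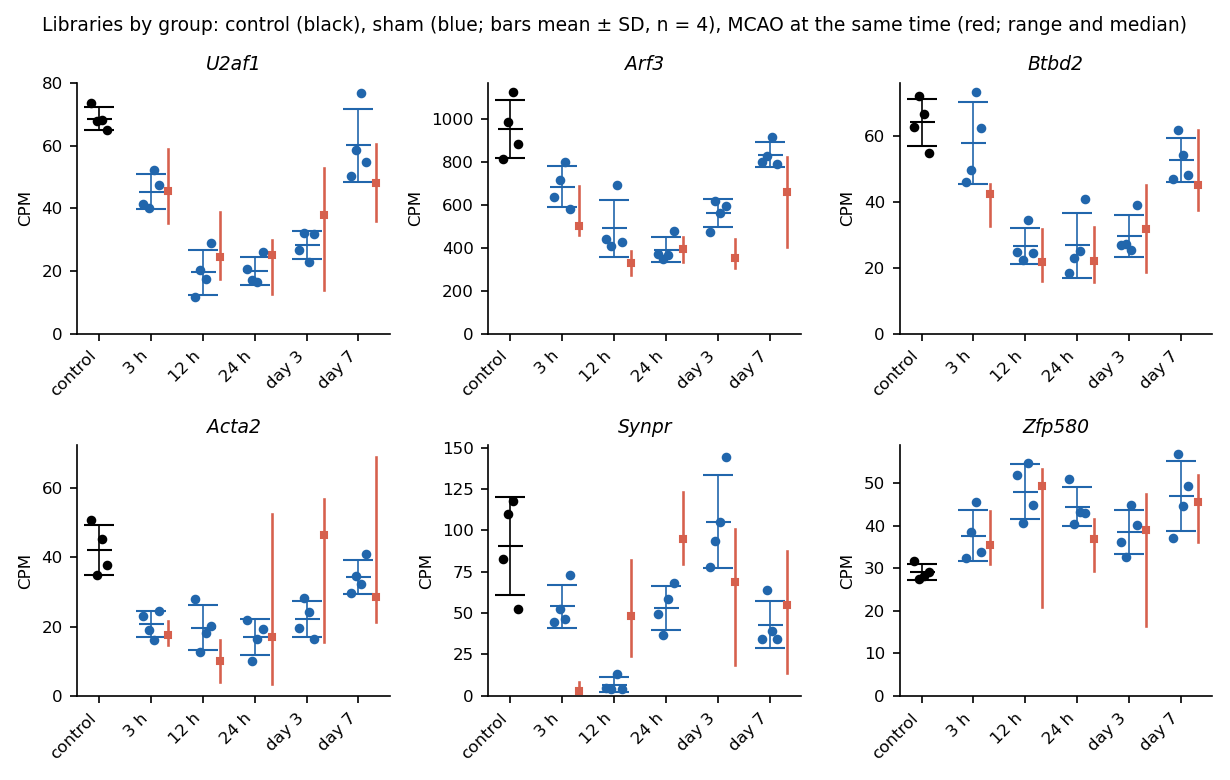
CPM (vertical, from 0) of 6 genes in each library of control (black) and of the 5 sham times (blue), with mean ± SD (n = 4) as bars and, beside each sham time, the range and median of MCAO (red). *U2af1*, *Arf3* and *Btbd2* are lowest at 12 h and 24 h and near control on day 7, *Synpr* is near 0 only at 12 h among the shams, and all 20 sham values of *Zfp580* lie above the 4 controls.

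The calls of *Ttr* and *Cxcl1* rested on 1 or 2 control libraries. *Ttr*, transthyretin, is made in the brain by the choroid plexus. Its counts were 879, 3, 0 and 0 in controls A to D and at most 9 in any sham, so that control A alone was high. Without control A the pooled log2 fold change was -0.26 (edgeR adjusted p = 0.9999), against -7.88 with it (adjusted p = 6.64e-06). The summed level of 14 choroid plexus and ependyma markers was 522.8 CPM in control A, from 10.85 to 22.5 CPM in the other 3 controls and from 8.01 to 37.2 CPM in the shams. *Ttr* is among the 14 and supplied 490.4 CPM of the sum in control A. The sum therefore repeats the *Ttr* value and says little about the other markers. DESeq2 gave no adjusted p for *Ttr*.

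*Cxcl1* (chromosome 5, 90891241-90893115, plus strand), a chemokine that attracts neutrophils, had counts of 0, 3, 42 and 22 in controls A to D and of 0 in 17 of 20 shams. The other 3 shams, all at 12 h, had 1, 4 and 1 counts. The fitted log2 fold change of -6.56 ± 0.84 (SE; edgeR adjusted p = 0.00182) is set by these near-zero counts. It lost its call without control C (adjusted p = 0.0949), without control D (0.0123) and in DESeq2 (0.999). Controls C and D, the 2 libraries in which *Cxcl1* was high, also held more counts of other genes that endothelium switches on when it meets an inflammatory signal. Their part in the other pooled differences was not tested beyond leaving both out, after which *U2af1* had a log2 fold change of -1.16 (edgeR adjusted p = 0.0316), *Arf3* one of -0.65 (adjusted p = 0.515) and *Synpr* one of -1.29 (adjusted p = 0.114), and *Ttr* alone was called. Single controls also decided 2 of these calls: the adjusted p of *Arf3* was 0.0242 without control B and 0.0949 without C, and that of *Synpr* 0.0264, 0.0772 and 0.221 without A, B and C (edgeR).

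A set of 24 such genes was put together after these values had been seen, so its counts are a description. Its summed level was 306.9 and 306.4 CPM in controls A and B, 576.9 and 533.8 CPM in controls C and D, and from 272.6 to 392.2 CPM in the 20 shams. Of its 21 tested genes, 18 were lower in pooled sham, 11 of them at an unadjusted p under 0.05 (background 3.03%), with a median log2 fold change of -0.91. Only 17 of the 21 kept enough counts to be tested without controls C and D. The others passed the count filter only with those 2 libraries, so the count of 11 cannot be weighed against the background share. Of the 17, 9 were lower without controls C and D, none at p under 0.05, and the median was -0.03.

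The adhesion molecules showed the contrast most plainly. *Icam1*, which binds leukocyte integrins, had 3, 4, 30 and 29 counts in controls A to D and 0 to 8 counts in the shams. *Vcam1*, which does the same for monocytes and lymphocytes, stood at 36.3, 25.3, 70.6 and 94.2 CPM in the controls and from 18.3 to 39.2 (median 31.5) CPM in the shams, so that controls A and B lay inside the sham range and C and D above it. *Sele* and *Selp*, the endothelial selectins on which leukocytes roll, had 0, 0, 10 and 6 and 0, 0, 7 and 11 counts in the controls. *Sele* had 0 counts in all 20 shams and *Selp* at most 2. The pooled log2 fold changes of *Icam1* and *Vcam1* were -2.37 ± 0.49 and -0.91 ± 0.20 (SE; edgeR adjusted p = 0.0673 and 0.103), and without controls C and D they were -0.16 and -0.03.

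Further genes shared the pattern. *Cxcl2*, a chemokine next to *Cxcl1* in function, had 0, 0, 9 and 6 counts in the controls and at most 2 in any sham. *Apold1*, an early response gene of endothelium, stood at 6.14, 9.56, 19.8 and 23.4 CPM in the controls and from 2.73 to 11.2 (median 7.2) CPM in the shams. *Hspa1a*, the inducible heat shock protein 70, stood at 8.37, 8.99, 37.2 and 17.1 CPM in the controls and from 6.14 to 19.6 (median 9.34) CPM in the shams, so that only control C lay above all shams. The interleukin 6 gene (*Il6*), *Ccl2* and *Csf3* had too few counts to be tested. Members outside the pattern included *Ackr1*, *Icam2* and *Lrg1*, with pooled values of 0.01, 0.15 and -0.17. In all, 3 of the 21 tested members had a positive pooled value and 18 a negative one, and the highest was 1.11.

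**Figure D3:**
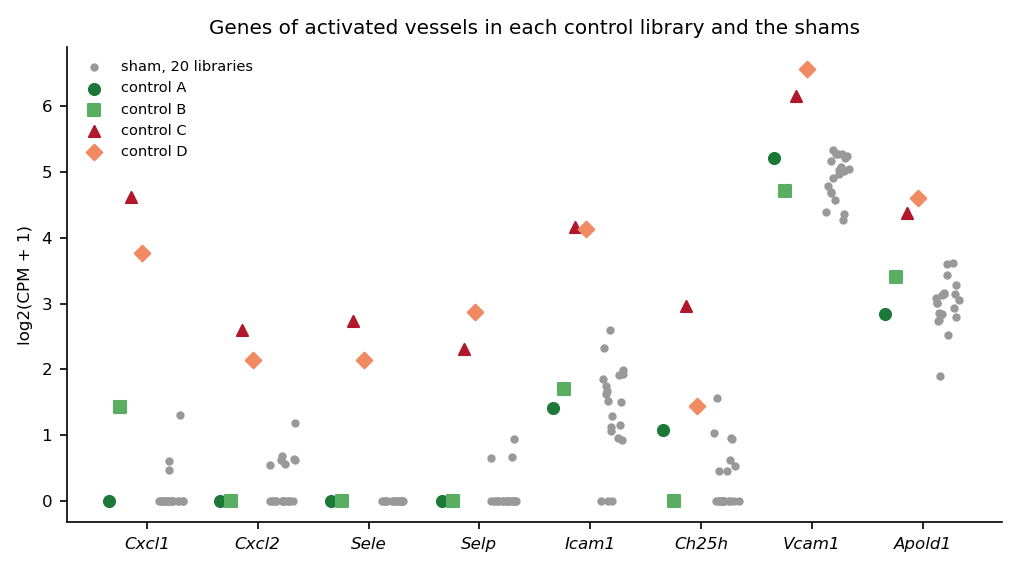
Log2(CPM + 1) (vertical) of 8 genes of activated vessels in controls A to D (coloured symbols) and the 20 shams (grey). Controls C and D lie above A, B and all 20 shams in each gene except *Ch25h*, where D lies below the highest sham.

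Promoters of 3 of these genes are shown because the genes were high in the same 2 control libraries. The sequences run from 250 bases before to 50 after the start of the gene (RefSeq, GRCm38.p6, plus strand), and capitals mark matches to GGNNNTTCC or its reverse complement GGAANNNCC, letters chosen after the promoters had been read as a loose form of the NF-kB site. Overlapping matches run together. Of 32851 promoters in the table, 18.5% hold at least 1 match.
*Cxcl1*, chr5:90890995-90891294: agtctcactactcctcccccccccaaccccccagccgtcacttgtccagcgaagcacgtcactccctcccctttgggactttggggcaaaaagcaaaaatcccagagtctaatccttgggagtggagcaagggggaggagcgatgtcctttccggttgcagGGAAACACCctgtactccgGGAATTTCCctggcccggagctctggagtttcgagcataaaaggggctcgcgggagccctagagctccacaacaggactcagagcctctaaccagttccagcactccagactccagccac
*Icam1*, chr9:21015690-21015989: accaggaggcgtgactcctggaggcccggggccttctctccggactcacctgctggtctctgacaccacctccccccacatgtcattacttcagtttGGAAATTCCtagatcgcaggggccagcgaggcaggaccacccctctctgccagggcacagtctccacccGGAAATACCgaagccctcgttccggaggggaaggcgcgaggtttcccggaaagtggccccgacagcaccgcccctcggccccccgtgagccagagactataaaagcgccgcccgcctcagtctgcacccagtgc
*Sele*, chr1:164047984-164048283: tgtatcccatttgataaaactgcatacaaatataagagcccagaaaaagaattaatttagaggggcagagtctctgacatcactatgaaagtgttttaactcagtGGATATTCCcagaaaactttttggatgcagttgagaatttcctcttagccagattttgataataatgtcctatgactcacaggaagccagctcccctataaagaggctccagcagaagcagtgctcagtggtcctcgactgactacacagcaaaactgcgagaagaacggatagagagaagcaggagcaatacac
The promoters of *Selp*, *Cxcl2* and *Apold1* also held a match and that of *Ch25h* did not. *Vcam1* was not in the table. A match describes the letters only.

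Genes of neuronal activity had values that differed by time and between the controls. Immediate early genes are switched on within minutes by neuronal firing. Of 23 tested, 19 had a negative pooled value with a median of -0.21. At an unadjusted p under 0.05, 7 were lower and none higher (background 3.03% lower and 1.85% higher). None was called. The median was 0.19 at 3 h, -0.36 at 12 h, -0.58 at 24 h, 0.04 on day 3 and -0.70 on day 7. At 24 h 7 of the 23 were lower at an unadjusted p under 0.05 (background 2.63%), and on day 7 12 were (background 4.86%). Without controls C and D the pooled median turned to 0.05, with 13 genes positive and 10 negative, while the values at 24 h and on day 7 stayed negative at -0.28 and -0.43 with 2 and 0 genes at p under 0.05.

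*Fos*, the best known of them, stood at 12.8, 15.7, 40.1 and 25.7 CPM in controls A to D and from 5.93 to 35 (median 13.7) CPM in the shams, with a pooled log2 fold change of -0.59 ± 0.28 (SE; edgeR adjusted p = 0.993) that turned to 0.13 without controls C and D. *Nr4a2*, a nuclear receptor induced by activity, stood at 307, 334, 427 and 361 CPM in the controls and at 96.8, 174, 147 and 159 CPM in sham 24 h. All 4 of the latter were below the controls, and the pooled value of -0.76 ± 0.21 was -0.60 without controls C and D (adjusted p with all controls = 0.5). The share of all genes that separate the controls from sham 24 h was not counted. *Btg2* and *Ier2* had pooled values of -0.95 and -1.02 (adjusted p = 0.673 and 0.853).

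Glucocorticoid-responsive genes were looked at next. At 3 h, 5 of 18 were higher and none lower at an unadjusted p under 0.05 (background 2.14%), none called, with a median of 0.155. Over all times 3 were higher and 1 lower (background 1.85% higher and 3.03% lower) with a median of 0.02. On day 7 the list went the other way, with 1 higher and 5 lower (background 4.86% lower) and a median of -0.065. *Fkbp5*, the co-chaperone that feeds back on the glucocorticoid receptor, stood at 20.1, 19.7, 20.3 and 16 CPM in the controls and 39.9, 42.6, 41.7 and 40.9 CPM in sham 3 h. These groups did not overlap, and the log2 fold change of 1.12 ± 0.24 did not pass the threshold (SE; edgeR adjusted p = 0.22). How many of all genes separate the controls from sham 3 h was not counted, so the lack of overlap has no background beside it. The sham levels at later times were 25.8 ± 5.56 CPM at 12 h, 23.1 ± 9.77 CPM at 24 h, 26.4 ± 4.85 CPM on day 3 and 19.3 ± 5.63 CPM on day 7 (SD, n = 4), the last beside 19 ± 2.04 CPM in control. MCAO at 3 h held from 31.9 to 57.4 (median 43) CPM, around the sham level. *Zbtb16*, a transcription factor induced by glucocorticoids, stood at 48.2, 34.5, 33.6 and 22.4 CPM at 3 h and 19, 8.43, 16.9 and 25.1 CPM in the controls with overlap (log2 fold change 1.02 ± 0.32, edgeR adjusted p = 1). Without controls C and D the 3 h count was again 5 higher and 0 lower, and 12 h gave 5 higher and 0 lower as well, against 1 and 0 with all controls. Over all 17988 genes tested without these controls, 348 were higher at 3 h and 385 at 12 h.

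At each single time few genes differed. The threshold was passed by 0 genes at 3 h (0%), 6 at 12 h (0.0331%), 2 at 24 h (0.011%), 2 on day 3 (0.011%) and 0 on day 7 (0%). At 3 h and on day 7 edgeR had 773 and 1703 genes at an unadjusted p under 0.05, and DESeq2 called 1 and 0. DESeq2 called 17 genes at 12 h, 21 at 24 h and 5 on day 3. Without library A of sham 12 h and library D of sham day 7, edgeR called 3 genes at 12 h and 8 at 24 h. Library C of sham 12 h, the furthest from its group, was kept there. With only that library left out, edgeR called 6 genes at 24 h. The 6 genes at 12 h were *Synpr*, *U2af1*, *Arf3*, *Btbd2* and *Gm15446*, all lower, and *Tmem181b-ps*, higher. The 2 genes at 24 h were *U2af1* and *Arf3*. On day 3 *U2af1* was lower and *Gm10263* higher.

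More genes passed among the sham times than between pooled sham and control, by tests that differ in criterion and in the libraries used. The F test among the 5 times, which uses no control library and sets no minimum fold, called 18 genes (edgeR adjusted p under 0.01), which is 0.0992% of those tested. At an adjusted p under 0.05 with no minimum fold in either, the counts were 32 among times and 8 pooled (edgeR). *Dgkz*, *B4galnt1*, *Syf2*, *Ubtf* and *Coq10a* were, like *U2af1* and *Arf3*, below control at both 12 h and 24 h, and their day 7 values were closer to 0. *Nptx1*, neuronal pentraxin 1, which gathers glutamate receptors at excitatory synapses, stood at 402 ± 28.6 CPM in control, 520 ± 71.7 CPM at 3 h, 269 ± 23.7 CPM at 12 h, 228 ± 52.7 CPM at 24 h, 276 ± 45.6 CPM on day 3 and 578 ± 73.7 CPM on day 7 (SD, n = 4). It was thus above control at the first and last times and below it in between, and its pooled value was -0.20 ± 0.11 (SE; F test among times, edgeR adjusted p = 5.95e-07). *Tubb2b*, a tubulin of growing neurites, was also lowest at 24 h and above control on day 7. It went from 449 ± 75.2 CPM in control to 141 ± 84.4 CPM at 24 h and 586 ± 120 CPM on day 7 (F test, edgeR adjusted p = 0.000632). Unlike *Nptx1*, it was below control at 3 h (log2 fold change -0.36 ± 0.28 SE).

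**Figure D4:**
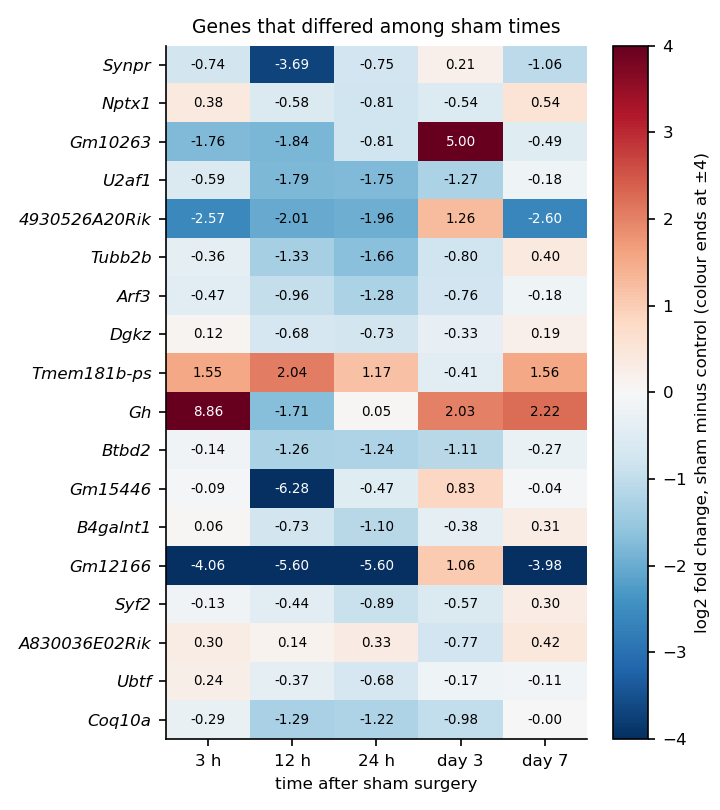
Log2 fold change of sham minus control (colour and printed value) at each of the 5 times (columns) for the 18 genes that differed among sham times (rows, ordered by p). Most protein-coding genes are lowest at 12 h or 24 h, and the extreme values of *Gh*, *Gm10263*, *Gm12166* and *Gm15446* rest on groups at or near 0 counts.

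Several of the 18 were pseudogenes or genes that were nearly absent in 1 group, and counts of the pseudogenes are uncertain, since reads shared with close copies were not measured here. *Tmem181b-ps*, an unprocessed pseudogene, stood at 4.46, 12.4, 5.08 and 11.4 CPM in the controls, 24, 26.1, 44.4 and 41.7 CPM in sham 12 h and 5.44, 5.08, 6.07 and 8.43 CPM in sham day 3, and MCAO at 24 h held from 0 to 0.425 (median 0) CPM. *Gm15446* had counts of 17, 8, 6 and 3 in the controls and 0 in all 4 libraries of sham 12 h, and at least 4 in every other sham. *Gm10263*, a processed pseudogene, had 78, 2, 72 and 36 counts in sham day 3 and at most 2 in each of the other 20 libraries, so that 3 of the 4 libraries of 1 group made its call. *4930526A20Rik* was at 22.9, 22.2, 24.8 and 30.4 CPM in sham day 3, at most 4.72 CPM in the other shams, and split the controls into 18.4, 0.562, 21.4 and 1.14 CPM. *Gh*, growth hormone of the pituitary, had 838 counts in library C of sham 3 h and at most 7 in every other library of the comparison.

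Of the genes by which injured cortex is recognized, few differed between sham and control. Of 26 tested genes of reactive astrocytes none was called, and the median pooled value was -0.20. At an unadjusted p under 0.05, 1 was lower and 0 were higher (background 3.03% and 1.85%). In the comparison of pooled MCAO with pooled sham, which shares the sham libraries, 21 of the same 26 were higher at an adjusted p under 0.01 with a median of 1.64, where the shares over all 19970 genes were 5.71% higher and 2.52% lower. *Gfap*, the intermediate filament of reactive astrocytes, stood at 40.7, 39.9, 46.9 and 71.9 CPM in the controls and from 22.9 to 100 (median 42.7) CPM in the shams, with a log2 fold change of 0.02 ± 0.24 (SE, 95% interval -0.47 to 0.51). The sign of a value this small changed with the settings. MCAO held from 367 to 820 (median 436) CPM at 24 h and from 192 to 1185 (median 1030) CPM on day 3.

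Microglial genes gave similar counts. Of 20 genes of reactive microglia 2 were lower and none higher at an unadjusted p under 0.05 (background 3.03% and 1.85%). Their median was -0.20, while 18 were higher in MCAO than in sham. *Trem2*, a lipid receptor of microglia, and *Apoe*, its ligand, had pooled values of 0.10 ± 0.25 (95% interval -0.42 to 0.62) and 0.02 ± 0.10 (95% interval -0.18 to 0.22), and both changed sign under some settings. *Spp1*, osteopontin, and *Lyz2*, the lysozyme of macrophages, had values of -1.36 ± 0.42 and -0.87 ± 0.29 (edgeR adjusted p = 0.72 and 0.779), short of the threshold. Complement (15 genes, median -0.07), antigen presentation (13 genes, -0.07), interferon-induced genes (21 genes, -0.02) and cytokines and chemokines (20 genes, -0.08) had 1 called gene between them, *Cxcl1*, and their medians in MCAO against sham were 1.38, 1.51, 1.71 and 2.53. Pooled values of the interferon-induced genes ran from -0.72 to 3.92, with 10 positive and 11 negative. Of these 21, 1 was higher and 0 were lower at an unadjusted p under 0.05.

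Among matrix and meningeal genes more had negative than positive values. The 24 genes of the fibrotic scar had a median of -0.21 with 4 lower and 0 higher at an unadjusted p under 0.05, and the 18 markers of meningeal fibroblasts a median of -0.37 with 7 lower and 0 higher, none called, where the shares over all genes were 3.03% lower and 1.85% higher. At 24 h the meningeal list differed from the other times, with 10 positive and 8 negative, 1 higher and 1 lower at p under 0.05 and a median of 0.02. The summed level of these 18 markers was 1699 to 2154 CPM (median 2006) in the controls, 1312 to 3229 CPM over all shams and 2057 to 3229 CPM (median 2851) in sham 24 h. *Col3a1* and *Col1a2*, fibrillar collagens on both lists, had pooled values of -1.09 ± 0.34 and -0.64 ± 0.22 (SE; edgeR adjusted p = 0.72 and 0.818). The values were -1.21 and -0.75 without controls C and D. *Serpinh1*, the collagen chaperone, was at -1.15 ± 0.29 (adjusted p = 0.285).

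Medians of the pooled value were -0.12 for heat shock genes (17), -0.16 for endoplasmic reticulum stress (17), -0.10 for hypoxia (17), -0.04 for iron handling and metallothioneins (11), -0.06 for the clock (18), -0.15 for cholesterol synthesis (24), 0.06 for oxidative phosphorylation (30), -0.02 for ribosomal proteins (35), 0.04 for proliferation (17), 0.00 for axon injury (13) and -0.03 for plasticity genes (16), with no gene called. Without controls C and D the heat shock median turned to 0.17 (13 positive of 17, against 4) and that of endoplasmic reticulum stress to 0.16 (10 positive of 17, against 6). The medians of homeostatic microglia, microglia, border macrophages, oligodendrocytes, precursors and skin also changed sign, to 0.11, 0.08, 0.02, -0.12, -0.05 and -0.14. So did those of oxidative phosphorylation, proliferation, axon injury and complement, to -0.0015, -0.044, -0.0449 and 0.0121. Markers of excitatory neurons (16), interneurons (14), astrocytes (15), microglia (12), oligodendrocytes (14), their precursors (10) and endothelium (14) had medians of -0.03, -0.15, 0.00, -0.06, 0.08, 0.08 and -0.03. Those of border macrophages (9), homeostatic microglia (13), thalamus (12), hippocampus (14) and striatum (13) had -0.18, -0.08, 0.06, 0.14 and -0.05. Granulocyte, lymphocyte, skin and muscle markers were near the detection limit, with 5 of 14, 3 of 13, 4 of 8 and 9 of 12 genes tested and medians of -1.82, 0.20, 0.10 and -0.32. The medians of choroid plexus and ependyma (11 of 14 tested) and hypothalamus and pituitary (11 of 13) were -0.48 and 0.43. The 4 tested of 5 genes checked for sex had a median of 0.00. Of the hemoglobin genes, *Hbb-bs* stood at 17.9, 37.1, 46.9 and 34.8 CPM in the controls and from 2.33 to 71.7 (median 11.2) CPM in the shams, with a pooled log2 fold change of -0.91 ± 0.45 and a day 3 value of -2.23 ± 0.67 (SE; edgeR adjusted p = 0.993 and 1). The day 3 values of *Hba-a1* and *Hba-a2*, near-identical copies whose counts are uncertain, were -1.91 and -1.64. Of the 5 granulocyte genes 3 were lower at p under 0.05 (background 3.03%). Among them was *S100a9* at 0.558, 6.75, 2.82 and 2.85 CPM in the controls and from 0 to 3.66 (median 0.741) CPM in the shams.

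**Figure D5:**
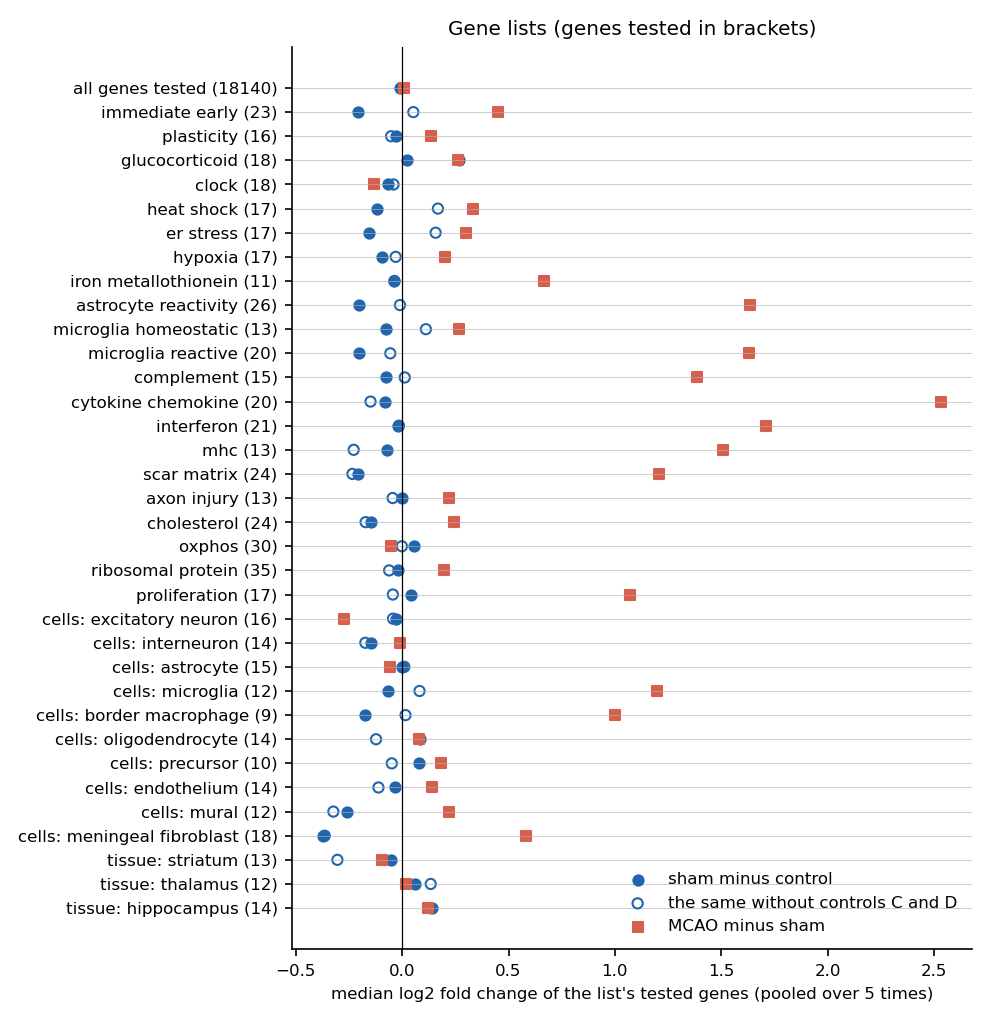
Median log2 fold change (horizontal) of the tested genes of each list (rows, number tested in brackets) for pooled sham minus control (filled circles), the same without controls C and D (open circles) and pooled MCAO minus pooled sham (squares). Lists near the detection limit and those of choroid plexus, pituitary, blood, sex genes and activated vessels are left out. The filled circles lie between -0.37 and 0.14, the open circles reach 0.27 (glucocorticoid genes), and the squares of reactive glia, complement, interferon, antigen presentation and chemokines lie between 1.38 and 2.53.

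No gene was called higher in the pooled shams, and the 6 rises with the lowest p are given as values. *Zfp580*, a zinc finger gene (chromosome 7, 5051538-5053723, plus strand), stood at 31.8, 27.6, 28.2 and 29.1 CPM in the controls and from 32.4 to 56.9 (median 43.1) CPM in the shams, without overlap, and its log2 fold change was 0.56 ± 0.14 (SE; edgeR adjusted p = 0.285). MCAO libraries at 24 h ranged from 29.3 to 41.6 (median 36.9) CPM. *Tmem181b-ps* had a value of 1.18 ± 0.28 and *Pigt*, a subunit of the enzyme that attaches glycolipid anchors to proteins, one of 0.92 ± 0.25 (adjusted p = 0.225 and 0.431). *Cyp26b1*, which breaks down retinoic acid, was at 1.18 ± 0.34, with control C at 30.5 CPM inside the sham range and the other 3 controls below every sham (adjusted p = 0.624). *Gm11722* and *Gm15535*, annotated as sense intronic transcripts, were at 1.30 ± 0.36 and 1.27 ± 0.35 (adjusted p = 0.5 and 0.508). *Actb* and *Gapdh*, genes often used as references, were at 0.08 ± 0.10 and -0.24 ± 0.42. *Gapdh*, which has many processed copies in the genome, was counted at only 44.2 ± 18.2 CPM in control (SD, n = 4), and its counts are uncertain.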

How the data were processed

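Cortical RNA of sham and unoperated mice was sequenced as 3′ end libraries to which ERCC RNA was added. Before counting, the authors trimmed reads, removed ribosomal and mitochondrial sequences, aligned the rest with STAR (2.5.2b) to GRCm38 with the spike-in sequences and counted reads per gene with HTSeq, and these deposited counts were used as they are. The normalized matrix of the authors was not used. Summary lines of the counting program (no feature, 22.0% to 26.6% of the listed reads) and 92 spike-ins were left out of library sizes. Of 46983 genes listed, 18140 with more than 10 counts over the 24 libraries were tested. The edgeR (4.0.16, R 4.3.3) quasi-likelihood test was fitted with 6 groups and TMM factors, with the 5 sham times weighted equally, an F test among them, and Benjamini-Hochberg adjustment over all genes. DESeq2 (1.42.0) and the other settings were alternatives, and the script was tested on simulated data. MCAO values come from a fit of all 48 libraries. Library measures were compared by exact permutation, and intervals cover counting and replicate spread only.

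The members and gene lists were chosen with earlier results of these data known. Genes are named if called with a mean of at least 5 CPM (the 10 largest changes in each direction, filled to 6 by p where fewer were called). For single times the 3 largest in each direction are named, and among times the 6 lowest p. Called members of the lists are named, and members with the lowest p, up to 3, in some lists only. *Gfap*, *Apoe*, *Trem2*, *Fos*, *Gapdh* and *Actb* are named in any case. *Cxcl1*, *Slc38a2*, *Rnf126*, the vessel genes, the non-overlapping genes and other genes below 5 CPM were named after their values were seen. Sources differ on the tissue: one speaks of forebrain hemispheres, another of the cortical region. The list of blood markers is not reported as a whole here.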

Additional observations from a re-analysis of the deposited data

Results flagged for a closer look

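In groups of 4 libraries, 157 pairs of a group with a gene or library measure were checked. In 13 of them 1 library lay far from the other 3 (Dixon's test). Chance flags about 1 in 20 where values are normally spread, but any count is flagged where the other 3 libraries are at 0. *Ttr* was at 490.4 CPM in control A against 0 to 1.69 CPM in the other controls, and at 0.896 CPM in sham 3 h C, 3.33 CPM in sham 12 h C and 0.572 CPM in sham day 7 A where the others of the group were at 0. *Synpr* was at 13.3 CPM in sham 12 h C (others 4.17 to 5.03) and 63.9 CPM in sham day 7 B (others 34.2 to 39.2). *Arf3* was at 691 CPM in sham 12 h C (others 409.8 to 439). Library D of sham day 3 was high in *Btbd2* (38.9 CPM, others 25.2 to 27.2) and *Nptx1* (343 CPM, others 244 to 259). *Trem2* was at 7.09 CPM in sham day 7 C (others 12.0 to 12.3) and *Actb* at 3358 CPM in sham day 3 C (others 3639 to 3681). *Gm10263* was at 0.576 CPM in sham 3 h B and 0.521 CPM in sham 12 h B where the others were at 0, which is 1 count.

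The difference from control itself changed with the time after surgery in 10 named genes (edgeR F test among the 5 sham times). Over all 18140 genes tested, 18 passed this test (0.0992%). Several of the 10 were named for their low p in it, so their number follows from the choice of genes. The adjusted p was 5.95e-07 for *Synpr*, 5.95e-07 for *Nptx1*, 7.82e-07 for *Gm10263*, 2.25e-05 for *U2af1*, 0.000121 for *4930526A20Rik*, 0.000632 for *Tubb2b*, 0.00127 for *Arf3*, 0.00187 for *Tmem181b-ps*, 0.00188 for *Btbd2* and 0.00202 for *Gm15446*.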

How the results depend on the processing

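Counts of called genes moved with the filter, the test and the controls used, and the cause was not tested. Against 5 pooled calls, an adjusted p under 0.05 gave 8, filterByExpr 2, no filter 19, the 20 shams as 1 group 2 and leaving out controls C and D, chosen after seeing the data, 1. With no filter the counts were 11 at 3 h, 21 at 12 h, 31 at 24 h, 9 on day 3, 25 on day 7 and 169 among times. DESeq2 gave 1, 17, 21 and 5 at 3 h, 12 h, 24 h and day 3 and 83 among times. ERCC scaling gave 13 at 24 h and 0 on day 3. The day 3 count was 1 with filterByExpr, 0 with all 48 libraries and 0 with a GC offset (added after seeing the data). Without controls C and D it was 1 at 3 h, 1 on day 3 and 1 on day 7, and without sham 12 h A and day 7 D (also added) 3 at 12 h and 8 at 24 h. Leaving out 1 library at a time gave 2 to 7 pooled, 0 to 0 at 3 h, 2 to 9 at 12 h, 2 to 6 at 24 h, 0 to 3 on day 3, 0 to 0 on day 7 and 12 to 26 among times, and a spike-in difference of 0.359 to 0.447 percentage points.

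The correlation of deviations between libraries of the same replicate letter ran from -0.60 to 0.50 (median 0.07, over 0.1 in 25 of 60 pairs). Between other letters it ran from -0.71 to 0.75 (median -0.01, over 0.1 in 53 of 180 pairs). Whether the letters pair the libraries was not tested. With the replicate block 5 genes were called pooled, 4 at 24 h and 0 on day 3, and *Gm10263* was at -0.0396.

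Pooled values near 0 changed sign. *Gfap* was at -0.15 with ERCC scaling, -0.0089 with the GC offset, -0.0825 without sham 12 h A and day 7 D, -0.0162 without the 12 h group, -0.0176 without the 24 h group and -0.0648 to 0.25 without single libraries. *Apoe* was at -0.13 with ERCC scaling, -0.0076 with the GC offset, -0.0364 without controls C and D, -0.0115 without sham 12 h A and day 7 D, -0.0223 without day 7 and -0.016 to 0.0626 without single libraries. *Trem2* was at -0.0578 with ERCC scaling, -0.0058 without day 7 and -0.0061 to 0.25 without single libraries. *Fos* was at 0.13 without controls C and D, *Actb* at -0.0755 with ERCC scaling and *Gm15446* at 0.0565 without 12 h. *Gm10263* was at -0.12 with ERCC scaling, -0.0012 with the GC offset, -0.51 without controls C and D, -1.20 without day 3, -0.0627 in DESeq2 and -0.36 to 0.54 without single libraries. *Acta2* and *Btbd2*, not called pooled in the main fit, were called in 6 alternatives each, and *Cyp26b1* and *Tubb2b* in 1 each. *Synpr* lost its pooled call in 14 alternatives, *Arf3* in 5, *U2af1* in 2, *Cxcl1* in 3 and *Ttr* in 1. Beyond these, *Cxcl1* was not tested after filterByExpr or without controls C and D, and *Ttr* was not tested after filterByExpr and got no adjusted p from DESeq2. Genes under 5 CPM rest on few counts at this depth.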
